A study of Homo sapiens with 18 samples.

Results

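The SP5 mutant hESC clones dZF1 and dZF2 were compared with WT Rep. 2, the wild-type cells run beside them, after 24 h of Wnt3a. These are 3 of the 18 samples of the series and 3 of its 16 RNA-Seq libraries. All genes of the deposited mutant table were taken, and a gene was counted as moved where both clones lay on the same side of WT Rep. 2. By the labels all lines were H1, an established human embryonic stem cell line, grown without feeder cells and treated with 1 nM Wnt3a for 12, 24 or 48 h. The 0 h libraries came from cells given the storage buffer of the protein, without Wnt3a. Each clone was grown from a single CRISPR-Cas9-edited cell and carries deletions in both SP5 alleles that target the zinc-finger coding sequence, so each is 1 line and a trait of the clone cannot be told apart from the mutation. A shortened SP5 protein at a low level is described for the clones. A first WT series, scaled on its own, covered the same times, and each line and time has 1 library. The p-values measure only the spread between the clones.

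WNT signals stabilize β-catenin, which acts with TCF and LEF factors to switch on target genes. In pluripotent cells this starts a primitive streak programme, in which mesendoderm factors such as EOMES, MIXL1 and GSC and the TGF-β family ligand NODAL come on before the genes of mesoderm and endoderm. SP5 is itself a direct WNT target and encodes a zinc-finger factor of the SP family, which binds GC-rich DNA at promoters.

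The coding sequence of the targeted domain is shown because its loss is what sets the clones apart from WT cells by design. It is the stretch from the first cysteine of the first finger to the last histidine of the third, at chr2:171573609-171573851 on the forward strand of hg19, in coding exon 2 of 2. These 243 bases encode residues 298 to 378 of the 398 of SP5 in the reference annotation, and the codons of the zinc-binding cysteines and histidines of the 3 fingers are in capitals. The exact ends of the deletions in each clone were not analysed here.
SP5 zinc fingers: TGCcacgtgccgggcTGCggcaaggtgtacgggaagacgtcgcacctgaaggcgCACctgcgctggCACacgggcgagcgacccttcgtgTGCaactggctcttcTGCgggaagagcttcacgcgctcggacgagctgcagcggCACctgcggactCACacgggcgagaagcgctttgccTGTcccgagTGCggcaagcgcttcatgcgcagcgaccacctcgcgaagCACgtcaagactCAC

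SP5 peaks in the deposited lists lay beside 4 of the called genes with the largest changes, and 151 bases around these summits are shown, forward strand of hg19, with GGGCGG and GGGAGG boxes or their reverse complements in capitals. The MIXL1 summit lay 152 bases upstream of the start site, and the SP5 summit 241 bases upstream. The GSC summit lay 337 bases upstream of its start site and the NODAL summit in an intron of that gene.
MIXL1, chr1:226411092-226411242: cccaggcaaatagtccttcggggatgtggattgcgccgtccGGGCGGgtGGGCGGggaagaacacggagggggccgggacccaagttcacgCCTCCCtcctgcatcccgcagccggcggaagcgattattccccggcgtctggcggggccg
SP5, chr2:171571531-171571681: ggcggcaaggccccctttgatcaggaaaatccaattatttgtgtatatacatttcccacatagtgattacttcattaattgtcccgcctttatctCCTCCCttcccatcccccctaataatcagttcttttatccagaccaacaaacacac
GSC, chr14:95236712-95236862: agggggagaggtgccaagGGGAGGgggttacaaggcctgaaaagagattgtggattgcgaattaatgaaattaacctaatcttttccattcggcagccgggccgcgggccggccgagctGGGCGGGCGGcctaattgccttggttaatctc
NODAL, chr10:72200137-72200287: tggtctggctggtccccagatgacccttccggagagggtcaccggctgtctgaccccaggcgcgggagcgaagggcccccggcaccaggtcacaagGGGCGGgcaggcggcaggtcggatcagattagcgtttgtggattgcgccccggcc
A GGGCGG box was found in 35.4% of the 539 summit windows of the list called against a Wnt3a-treated control, and in 5.38% of 1078 windows of the same length placed 2000 bases to either side. GGGAGG was found in 42.5% of the summit windows and in 25.4% of the flanking ones. A match in these letters is a description of the sequence and not a site.

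Every value of the mutant table is relative to the highest RPKM of that gene among the WT Rep. 2 libraries, so that 1 is the WT Rep. 2 peak level, and levels of different genes cannot be compared. No read counts come with these values, and the depth of the libraries is unknown. SP5 RNA was checked first because it is the targeted gene. At 24 h its value was 0.09 in WT Rep. 2 against 0.90 in dZF1 and 0.75 in dZF2. The values before Wnt3a were 0.02, 0.01 and 0.00 in the same order, those at 12 h 0.02, 0.23 and 0.62, and those at 48 h 1.00, 2.54 and 2.61. SP5 RNA was therefore measured in both clones, above WT Rep. 2 at each time with Wnt3a, and a value for the whole gene cannot show the loss of the deleted part. Of the pluripotency genes, SOX2 had a value of 0.77 in WT Rep. 2 against 0.63 in dZF1 and 0.26 in dZF2 at 24 h. POU5F1 and NANOG have no row in the table.

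The 24 h library of WT Rep. 2 stood apart from the first WT series, and every ratio below rests on it. From 0 to 24 h, 48.5% of the genes changed at least 2-fold in the first WT series but 10.3% in WT Rep. 2, with 24.3% for dZF1 and 33.2% for dZF2. The first WT series had a median log2 change of 0.64 and WT Rep. 2 one of 0.08, with 0.29 for dZF1 and 0.32 for dZF2. The study chose the genes of the table for their response to Wnt3a, so a larger change in the series used to choose them is built in.

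At 24 h the clones lay above WT Rep. 2 more often than below it. Both clones were above WT Rep. 2 for 254 genes (51.1% of the table) and below it for 145 (29.2%), and 98 genes did not move the same way. On the log2 scale, after adding 0.05 to each value, 52 genes (10.5%) were at least 2-fold higher in both clones and 14 genes (2.82%) at least 2-fold lower. These are called higher and lower below. The median log2 ratio of all genes was 0.21 in dZF1 and 0.27 in dZF2, and with each clone centred on its own median 42 genes were higher and 31 lower. The higher share of the called genes then moved from 78.8% to 57.5%. With 2 clones and 1 WT library an exact permutation test cannot give a two-sided p below 0.33, so the ratios are a description.

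**Figure D1:**
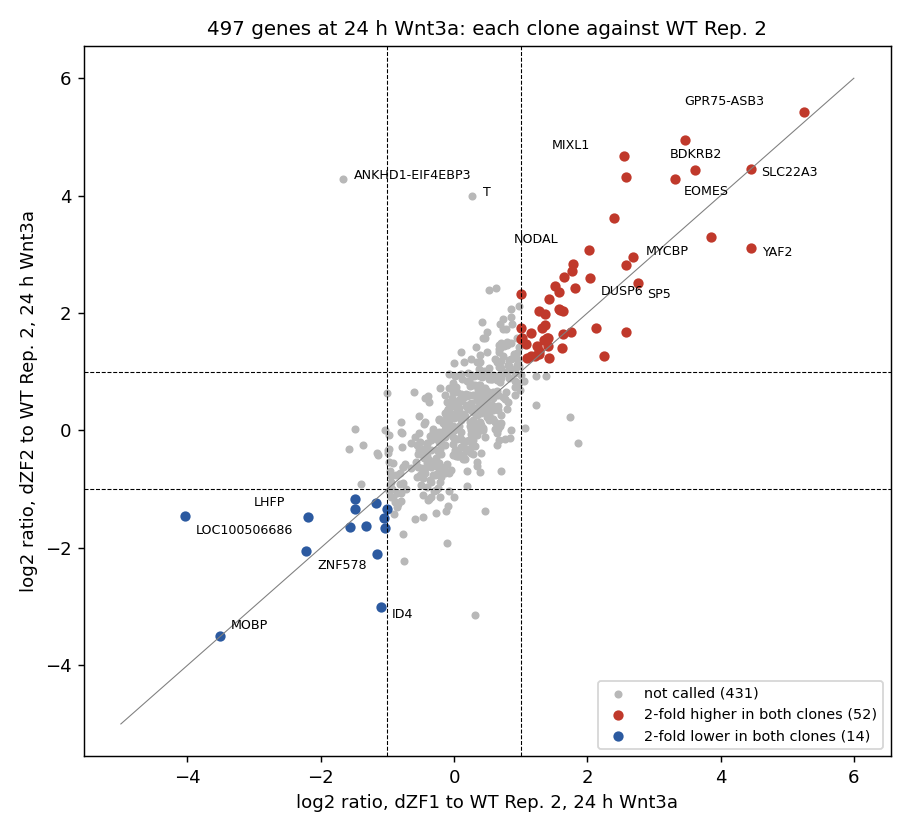
The log2 ratio of dZF1 to WT Rep. 2 at 24 h (horizontal axis) is plotted against that of dZF2 (vertical axis) for each gene of the table, with dashed lines at 2-fold and the diagonal in grey. The 52 genes called higher sit at the upper right, most of them above the diagonal, and the 14 called lower at the lower left.

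The largest fit that the design allows was a limma model of the 12 libraries of WT Rep. 2, dZF1 and dZF2 at the 4 times, in which the spread is that between the clones, with 4 residual degrees of freedom, and the lone WT library of each time is assumed to vary like them. It called 58 genes higher (11.7%) and 16 lower (3.22%) in the clones at 24 h at an adjusted p under 0.05. Of the 52 genes called higher by their ratios 44 passed this test, and of the 14 called lower 7 did. A fit on the 24 h libraries alone called 0 genes in either direction, with 58 higher and 12 lower at an unadjusted p under 0.05. The limma difference at 24 h is the mean of the ratios of the 2 clones, so its overlap with the calls is in part built in and is no separate support. SE values below are from the fit of 12 libraries, over 2 clones and 1 WT library at 24 h.

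Mesendoderm factors were among the genes with the largest ratios, and 33.3% of those measured were called higher, against 10.5% of all genes. Of 9 measured mesendoderm transcription factors, 3 were called higher and 0 lower, and the same number passed the limma test. EOMES, a T-box factor of the primitive streak and endoderm, had a value of 0.05 in WT Rep. 2 against 0.94 in dZF1 and 1.90 in dZF2. Its log2 ratio was 3.31 in dZF1 and 4.29 in dZF2, with a limma difference of 3.80 ± 0.46 (SE, adjusted p = 0.0108). The homeobox factor MIXL1 had a value of 0.08 in WT Rep. 2 against 0.71 in dZF1 and 3.27 in dZF2, a difference of 3.61 ± 0.89 (SE, adjusted p = 0.0439). The organizer gene GSC was at 0.10 in WT Rep. 2 against 0.74 in dZF1 and 1.80 in dZF2, a difference of 3.01 ± 0.71 (SE, adjusted p = 0.0388). In each of these 3 genes both clones were above WT Rep. 2, and dZF2 was the higher clone.

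The other 6 mesendoderm factors were not called. T, the T-box gene brachyury, was at 0.34 in WT Rep. 2 against 0.42 in dZF1 and 6.16 in dZF2, the highest value of the table at 24 h. The clones thus differed from each other more than dZF1 did from WT Rep. 2, and the limma adjusted p was 0.449. T also had a value of 0.46 in dZF1 at 0 h, when it was listed at 0 in WT Rep. 2 and dZF2. FOXB1 was at 0.63, 2.22 and 0.75 in WT Rep. 2, dZF1 and dZF2, and here dZF1 was the high clone. TBX3 was listed at 0 in dZF1, at 0.07 in dZF2 and at 0.10 in WT Rep. 2. LHX1 was at 0 in WT Rep. 2 and dZF1 and at 0.02 in dZF2. The median ratio of the 9 factors was 0.99, against 0.24 for all genes, but 0.41 in dZF1 alone and 0.49 in dZF2 alone.

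Endoderm genes were low at 24 h in all 3 lines, and 4 of the 10 measured were called higher and 0 lower. Over all genes 10.5% were called higher and 2.82% lower, so the higher share of the endoderm genes was larger, but it rests on few genes. FOXA2, a forkhead factor of endoderm, was at 0.03 in WT Rep. 2 against 0.43 in dZF1 and 0.51 in dZF2, a limma difference of 2.70 ± 0.60 (SE, adjusted p = 0.0357). GATA6 was listed at 0 in WT Rep. 2, at 0.12 in dZF1 and at 0.28 in dZF2, and HHEX at 0, 0.25 and 0.11 in the same order. APLNR, the apelin receptor, was at 0.09, 0.29 and 0.52, and it was also above WT Rep. 2 at 0 h. By limma, FOXA2, GATA6 and APLNR passed and HHEX did not (adjusted p = 0.104). SOX17, which marks definitive endoderm, was listed at 0 in all 3 libraries. CXCR4, also used to mark endoderm, was at 0.05 in WT Rep. 2 against 0.09 in dZF1 and 0.11 in dZF2 (adjusted p = 0.141).

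NODAL and its own inhibitors formed the group with the highest share of calls. Of 7 measured genes of this pathway 5 were called higher (71.4%, against 10.5% of all genes), 0 lower, and all 7 lay above WT Rep. 2 in both clones. NODAL had a value of 0.32 in WT Rep. 2 against 1.46 in dZF1 and 3.06 in dZF2, a difference of 2.55 ± 0.57 (SE, adjusted p = 0.0357). Both clones were thus above the highest WT Rep. 2 level of NODAL at any time. GDF3, a NODAL-related ligand, was at 0.46, 1.49 and 2.07 in WT Rep. 2, dZF1 and dZF2 (adjusted p = 0.0139).

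The secreted NODAL inhibitors went the same way as the ligands. LEFTY1 was at 0.35 in WT Rep. 2 against 1.01 in dZF1 and 1.15 in dZF2 (adjusted p = 0.0372). LEFTY2 was at 0.36, 0.94 and 1.00 (adjusted p = 0.0327), and CER1, which also binds BMP and WNT proteins, at 0.02, 0.17 and 0.38 (adjusted p = 0.0226). PMEPA1, a membrane inhibitor of SMAD signalling, fell just outside the call with ratios of 0.98 and 1.42, and it passed the limma test (adjusted p = 0.0372). FST, the activin-binding protein follistatin, was at 0.95 in WT Rep. 2 against 1.73 in dZF1 and 2.24 in dZF2, and did not pass.

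Genes of WNT secretion and several WNT inhibitors lay above WT Rep. 2 in both clones. WNT3, a ligand of the streak, was at 0.32 in WT Rep. 2 against 0.95 in dZF1 and 1.70 in dZF2 (adjusted p = 0.0303). WLS, the carrier that WNT proteins need for secretion, was at 0.40, 1.10 and 1.26 (adjusted p = 0.0377). Together with SP5 these were the 3 called higher of 13 measured WNT ligands, receptors and factors, with 0 called lower. This share of 23.1% rests on few genes beside the 10.5% of all genes. VANGL1, of the planar polarity pathway, was at 0.41, 0.84 and 1.10 and passed the limma test only (adjusted p = 0.0326). AXIN2, a direct β-catenin target that limits the pathway, was at 0.82, 0.87 and 1.09 (adjusted p = 0.527), with the 3 libraries close together.

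Of 8 measured WNT feedback inhibitors 3 were called higher (37.5%, against 10.5% of all genes) and 0 lower. DACT1, an adaptor of Dishevelled, was at 0.40 in WT Rep. 2 against 1.53 in dZF1 and 2.37 in dZF2, a difference of 2.12 ± 0.39 (SE, adjusted p = 0.0241). DKK1, a secreted LRP inhibitor, was listed at 0 in WT Rep. 2, at 0.10 in dZF1 and at 0.16 in dZF2 (adjusted p = 0.019). The related DKK4 was at 0, 0.05 and 0.20 and did not pass limma (adjusted p = 0.0833). APCDD1 separated the clones, at 0.28 in WT Rep. 2 against 0.46 in dZF1 and 1.73 in dZF2. AMOTL2 and GPR37 were at 0.64 each in WT Rep. 2, at 0.84 and 0.99 in dZF1 and at 1.37 and 1.27 in dZF2. Neither passed limma. By qPCR, a separate measurement, the study reports AXIN2, AMOTL2 and GPR37 as significantly higher in mutant cells given Wnt3a.

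**Figure D2:**
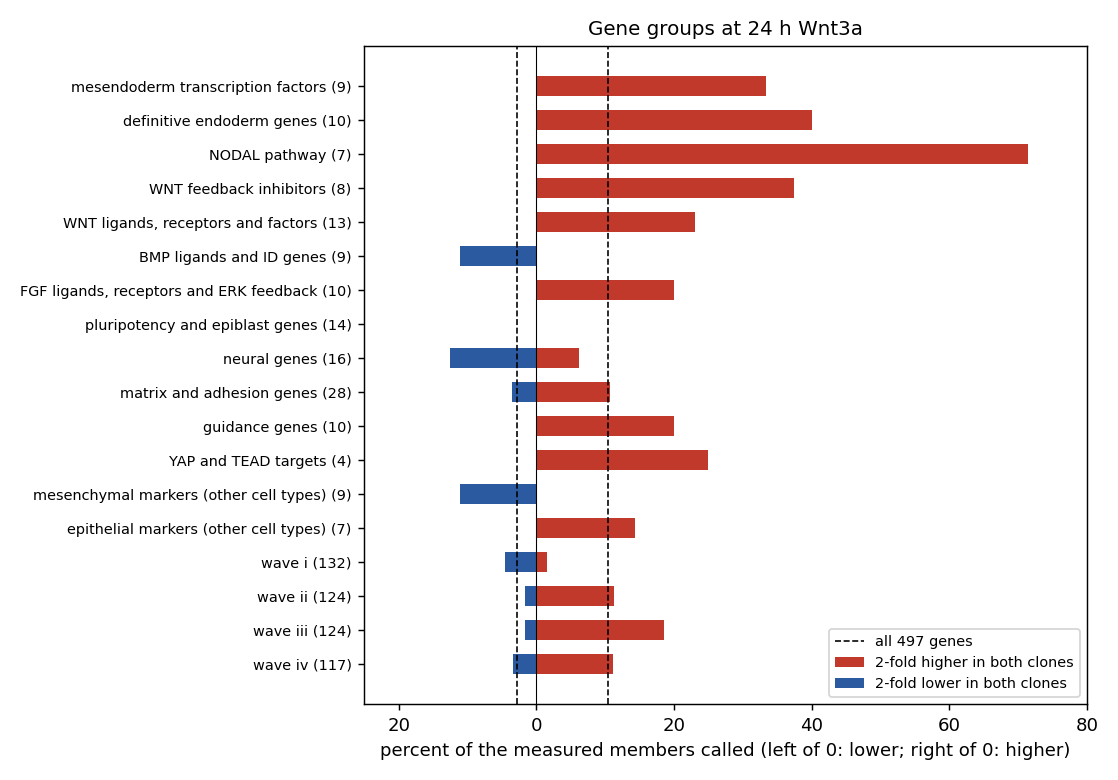
Bars give the percent of the measured members of each gene group (number in brackets) that were at least 2-fold higher (right) or lower (left) in both clones at 24 h, and dashed lines the shares of all genes, 10.5% and 2.82%. The NODAL pathway reached 71.4% higher, and the pluripotency genes have no bar.

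DUSP6 led the genes of FGF and ERK signalling. It encodes a phosphatase that removes phosphate from ERK and is a usual readout of that pathway. Its value was 0.20 in WT Rep. 2 against 0.98 in dZF1 and 1.46 in dZF2, a difference of 2.32 ± 0.29 (SE, adjusted p = 0.0108). IL17RD, another inhibitor of FGF signalling, was at 0.29, 0.83 and 1.13 (adjusted p = 0.0208), and DUSP4 at 0.27, 0.70 and 0.56 (adjusted p = 0.0326). The receptor FGFR3 and the early ERK target EGR1 lay on the other side. FGFR3 was at 0.83, 0.42 and 0.28 (adjusted p = 0.0787), and EGR1 at 0.55, 0.35 and 0.16. Of 10 measured genes 2 were called higher and 0 lower, too few to set apart from the 10.5% higher of all genes. The median log2 ratio of the list was -0.02, against 0.24 for all genes. In both clones 4 of its genes lay above WT Rep. 2 and 5 below. DUSP6 was already higher before Wnt3a, with a log2 ratio at 0 h of 1.82 in dZF1 and 1.98 in dZF2.

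None of the 14 measured pluripotency and epiblast genes was called, which at 2.82% lower of all genes does not set them apart, and 8 of them lay below WT Rep. 2 in both clones. With each clone centred on its median 3 of the 14 were called lower. PRDM14, a repressor of pluripotent cells, was at 0.95 in WT Rep. 2 against 0.33 in dZF1 and 0.48 in dZF2, a limma difference of -1.16 ± 0.27 (SE, adjusted p = 0.0377). PODXL, a surface sialomucin, was at 0.89, 0.44 and 0.46 (adjusted p = 0.0326). TERF1, a telomere-binding protein, was at 0.90, 0.47 and 0.51 and did not pass (adjusted p = 0.0578), nor did SOX2 (adjusted p = 0.236). POU3F1 lay the other way, at 0.75, 0.98 and 1.24. The median ratio of the group was -0.20.

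BDKRB2, the bradykinin B2 receptor, had the largest ratio among genes with a value above 0 in WT Rep. 2. It was at 0.04 in WT Rep. 2 against 1.05 in dZF1 and 1.89 in dZF2, a difference of 4.02 ± 0.40 (SE, adjusted p = 0.00444). C1orf97 was at 0.08, 0.40 and 0.88 (adjusted p = 0.0479). EPHA2, an ephrin receptor, was at 0.39 in WT Rep. 2 against 1.08 in dZF1 and 1.70 in dZF2 (adjusted p = 0.0228), and SLIT2, a guidance ligand, at 0.39, 1.27 and 2.21 (adjusted p = 0.0208). These were the 2 genes called among 10 guidance genes, too few to set apart from the 10.5% higher of all genes. Among 28 matrix and adhesion genes 3 were called higher and 1 lower, which is near the shares over all genes. FLRT2 was at 0.27, 0.80 and 0.82 (adjusted p = 0.0139), PCDH10 at 0.25, 0.66 and 0.76, and HAS2, the hyaluronan synthase, at 0.09, 0.30 and 0.42. AMOTL1, which binds YAP, was at 0.37, 1.05 and 1.2. It was the 1 gene called among 4 measured YAP and TEAD targets, too few to set beside the share of all genes.

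Markers of other cell types were called in counts that lists of this size cannot set apart from the 10.5% higher and 2.82% lower of all genes. Of 9 mesenchymal markers 0 were called higher and 1 lower, with 2 higher in dZF2 alone, and their summed value was 5.28 in WT Rep. 2 against 5.31 in dZF1 and 7.78 in dZF2. Of 7 epithelial markers 1 was called higher, CDA, and the sums were 3.25, 4.41 and 3.98. No marker of either list was at 0 in a 24 h library. The 16 measured neural genes summed to 9.09, 10.53 and 10.52, with GAD1 called higher and NPTX1 and NTS lower. In bulk RNA, a change in the share of a cell type and a change in RNA per cell cannot be told apart.

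The 14 genes called lower belong to no single group of those examined. ZNF578, a zinc-finger gene, was at 0.74 in WT Rep. 2 against 0.12 in dZF1 and 0.14 in dZF2, a difference of -2.14 ± 0.38 (SE, adjusted p = 0.0226). LHFP was at 1.00, 0.18 and 0.33 (adjusted p = 0.0346), and KCNG3, a potassium channel subunit, at 0.76, 0.24 and 0.31 (adjusted p = 0.0226). NTS, which encodes neurotensin, was at 0.51, 0.22 and 0.15 (adjusted p = 0.0303). In these 4 genes both clones were below WT Rep. 2, with a wider gap between the clones for LHFP than for the other 3.

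For other lower genes the clones were too far apart, or the fit too wide, to pass limma. ID4, a BMP-responsive inhibitor of helix-loop-helix factors, was at 1.00 in WT Rep. 2 against 0.44 in dZF1 and 0.08 in dZF2 (adjusted p = 0.132). NPTX1, a neuronal pentraxin, was at 0.77, 0.32 and 0.14 (adjusted p = 0.12). SPTSSB, a subunit of serine palmitoyltransferase, was at 1.00, 0.37 and 0.29 (adjusted p = 0.079), and the protocadherin PCDH18 at 1.00, 0.46 and 0.28 (adjusted p = 0.0625). PRODH, the mitochondrial proline dehydrogenase, was at 0.73, 0.23 and 0.26 (adjusted p = 0.136), and CLVS2 at 0.51, 0.14 and 0.13 (adjusted p = 0.346). LOC100506686 was at 0.94, 0.01 and 0.31 (adjusted p = 0.286), with a wide gap between the clones. Among BMP ligands and ID genes ID4 was the 1 called of 9 (11.1% lower, against 2.82% of all genes). ID3 lay above WT Rep. 2, at 0.40, 0.84 and 1.91, just outside the call.

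**Figure D3:**
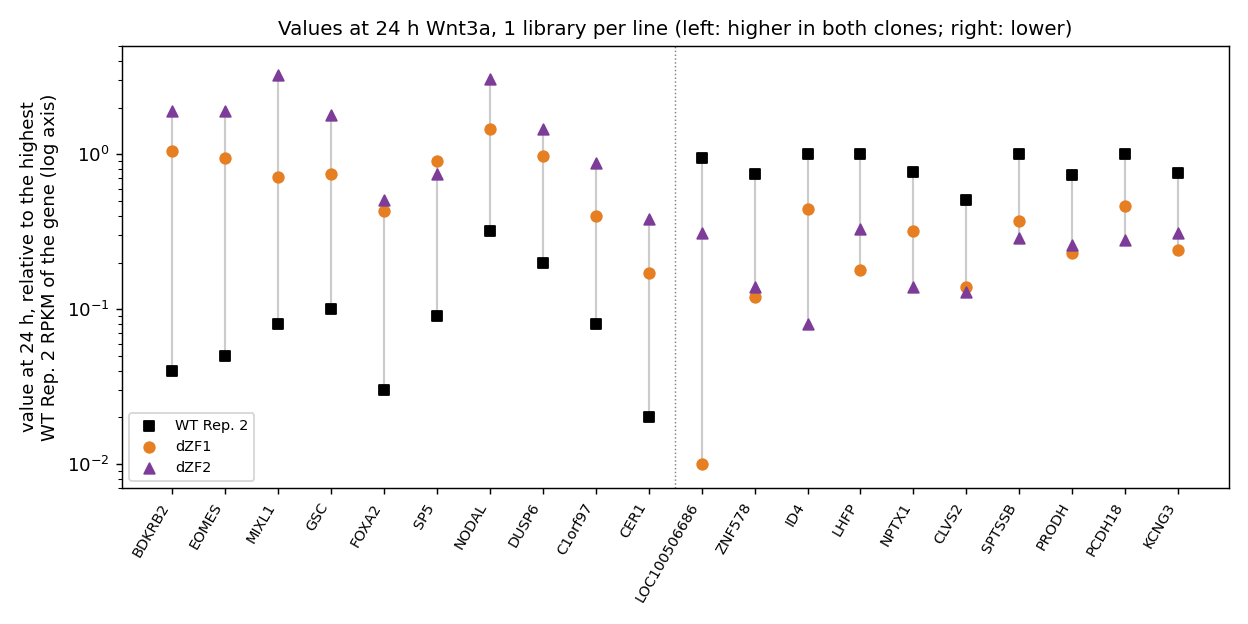
Values at 24 h (vertical log axis, relative to the highest WT Rep. 2 RPKM of the gene) are given for WT Rep. 2 (squares), dZF1 (circles) and dZF2 (triangles), 1 library each, for the 10 largest and 10 smallest mean ratios among called genes above 0. For 9 of the 10 higher genes dZF2 was above dZF1, SP5 being the exception, and WT Rep. 2 was at the bottom for all 10.

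Values near the threshold show how it falls. Just inside were IDO1, at 0.71 in WT Rep. 2 against 0.33 in dZF1 and 0.25 in dZF2, C15orf2 at 0.28, 0.61 and 1.06, and DKK4. Just outside were ID3, PMEPA1 and SLC47A1, the last at 0.43, 0.89 and 0.97. ANKHD1-EIF4EBP3, a readthrough gene that shares reads with its component genes, was the 1 gene 2-fold lower in one clone and 2-fold higher in the other, at 0.14 in WT Rep. 2 against 0.01 in dZF1 and 3.63 in dZF2.

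The clones were not equal in size of response. Alone, dZF1 was at least 2-fold higher than WT Rep. 2 for 60 genes and lower for 23, and dZF2 for 111 and 45. Of the 52 higher genes 42 had the larger value in dZF2, 9 in dZF1 and 1 was equal, while over all genes dZF2 was above dZF1 for 57.9%. The median gap between the clones among higher genes was 0.49 on the log2 scale. Over the 52 genes the median value was 0.23 in WT Rep. 2 against 0.855 in dZF1 and 1.08 in dZF2.

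Some of the largest ratios came from genes listed at 0 in WT Rep. 2 at 24 h, for which the ratio is set by the value added before the log and is not given as a fold. There were 16 such genes, 11 of them called higher. MYCBP, a MYC-binding protein, was in WT Rep. 2 at 0.69, 0.66, 0 and 1.00 after 0, 12, 24 and 48 h, and at 0.67 in dZF1 and 0.44 in dZF2 at 24 h. The organic cation transporter SLC22A3 was at 0.38, 0.25, 0 and 1.00 in WT Rep. 2 over the same times, and at 1.04 in dZF1 and 1.05 in dZF2 at 24 h. YAF2 was at 0.15, 0.67, 0 and 1.00, against 1.05 and 0.38 in the clones. In these 3 genes the 24 h library was the only one of WT Rep. 2 at 0, with at least 0.1 in the other 3, and an exact 0 in such a table can be a failed estimate. The readthrough gene GPR75-ASB3 was listed at 0 in WT Rep. 2 at 12 and 24 h and at 0.92 at 0 h, and LOC440925, SAMD3 and GAD1 were at 0 at 24 h with 0.05 or less at 0 h. Without the genes listed at 0 in any of the 3 lines at 24 h, 41 genes were higher and 13 lower of 475.

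Most of the called genes were not 2-fold from WT Rep. 2 in both clones before Wnt3a. At 0 h both clones were at least 2-fold above WT Rep. 2 for 11 of all genes (2.21%) and below it for 14 (2.82%). Of the 52 genes higher at 24 h, 3 were already 2-fold higher at 0 h, 1 was lower and 48 were neither. A gene that was neither need not have been equal. The median WT Rep. 2 value of the 52 at 0 h was 0.15, where the added 0.05 damps ratios. CER1, FOXA2, HHEX, DKK1, DKK4 and LOC440925 had a ratio of 0 in both clones. MIXL1 had a log2 ratio of 0 in dZF1 but 1.49 in dZF2. DUSP6 was at 0.43 in WT Rep. 2 against 1.65 in dZF1 and 1.84 in dZF2 at 0 h. APLNR was listed at 0 in WT Rep. 2, at 0.13 in dZF1 and at 0.05 in dZF2, and YAF2 was at 0.15, 0.47 and 0.68. For DUSP6 the ratio at 0 h was 1.82 in dZF1 and 1.98 in dZF2, close to 2.04 and 2.59 at 24 h, and the limma test of 24 h minus 0 h gave 0.42 ± 0.41 (SE, adjusted p = 0.659). The 1 gene that was lower at 0 h was GAD1, at 0.05 in WT Rep. 2 and 0 in both clones.

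A larger part of the lower genes was 2-fold from WT Rep. 2 in both clones before Wnt3a. Of these 14, 4 were already 2-fold lower in both clones at 0 h (28.6%), 1 was higher and 9 were neither. PPAP2B, a lipid phosphate phosphatase, was at 1.00 in WT Rep. 2 against 0.45 in dZF1 and 0.43 in dZF2 at 0 h, and at 0.87, 0.36 and 0.34 at 24 h, so the gap was nearly the same. ZNF578 was at 0.43, 0.10 and 0.08 at 0 h, ID4 at 0.98, 0.38 and 0.34, and PRODH at 0.90, 0.28 and 0.11. LOC100506686 turned over, from 0.01 in WT Rep. 2 against 0.39 in dZF1 and 0.26 in dZF2 at 0 h. At 1.5-fold for the 0 h call, 11 in place of 7 of the 66 called genes differed the same way at both times, the added ones being DACT1, AMOTL1, IL17RD and KCNG3.

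Tested as a difference between times, few genes passed. In limma the clones' log2 difference from WT Rep. 2, taken with its sign, was higher at 24 h than at 0 h for 2 genes (0.402%) and lower for 0, with 68 higher and 10 lower at an unadjusted p under 0.05. These were SLC22A3 (adjusted p = 0.00175) and MYCBP (adjusted p = 0.0224), and both had the value of 0 in WT Rep. 2 described above. BDKRB2 and FLRT2 followed with adjusted p of 0.0517 each, GDF3 with 0.0575 and EOMES with 0.0715. Divided by its own 0 h library, each clone was 2-fold above WT Rep. 2 for 61 genes (12.3%) and below it for 9 (1.81%), among them 40 of the 52 higher genes and 4 of the 14 lower ones.

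**Figure D4:**
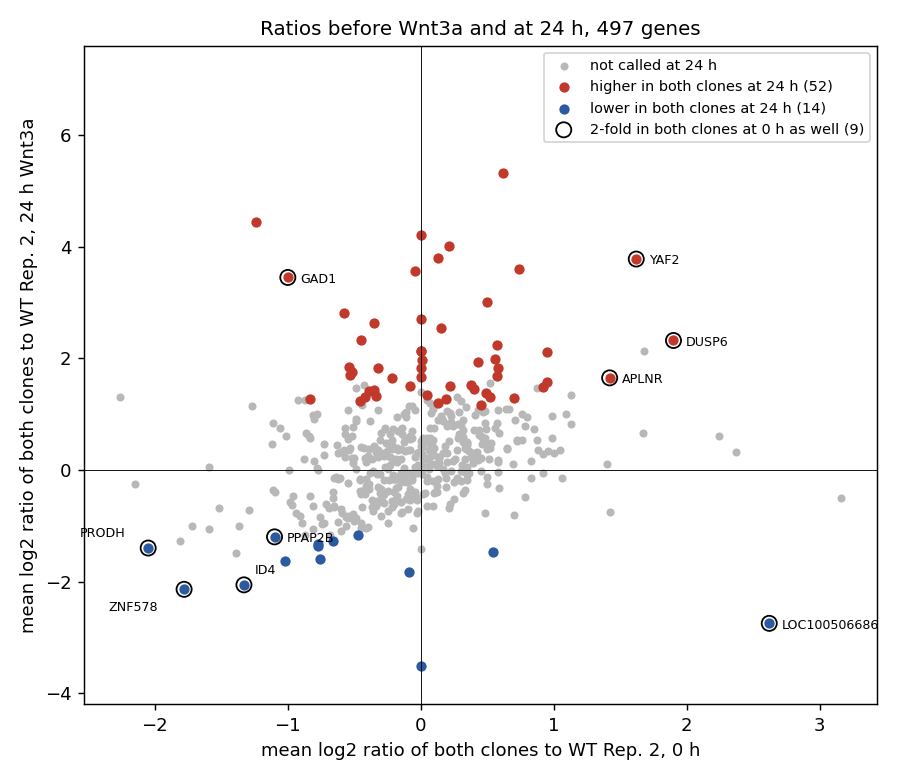
Each point is a gene, placed by its log2 ratio to WT Rep. 2 averaged over the clones, at 0 h (horizontal axis) and at 24 h (vertical axis), with circles around the 9 called genes that were also 2-fold from WT Rep. 2 in both clones at 0 h. Most of the higher genes stand near 0 on the horizontal axis, while ZNF578, ID4, PRODH and PPAP2B lie low on both.

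The libraries at 12 and 48 h, which took no part in the 24 h calls, gave the same side for most of these genes. At 12 h 14 of the 52 higher genes (26.9%) were 2-fold higher in both clones, against 3.42% of all genes, and at 48 h 11 (21.2%) against 6.24%. Both clones lay above WT Rep. 2 for 67.3% of them at 12 h and 75% at 48 h, against 36.6% and 44.7% of all genes, but for 32.7% at 0 h against 33.0%. SP5, NODAL and EOMES already stood above WT Rep. 2 in both clones at 12 h. EOMES was then at 0.03 in WT Rep. 2 against 0.18 in dZF1 and 0.30 in dZF2, and NODAL at 0.09, 0.29 and 0.74. Of the 14 lower genes 3 (21.4%) were 2-fold lower in both clones at 12 h, against 3.82% of all genes, and 5 (35.7%) at 48 h against 3.22%. Both clones lay below WT Rep. 2 for 78.6% of these 14 at 12 h and 71.4% at 48 h, against 43.3% and 36.0% of all genes. By 48 h NODAL was at 1.00, 1.43 and 1.64, and MIXL1 at 1.00, 1.22 and 1.5, so these values had drawn closer together.

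The calls were placed over the waves of the WT response, which follow from when a gene was highest in the first WT series. Wave i, highest at 0 h, held 2 higher and 6 lower of 132 genes. Wave ii, highest at 12 or 24 h, held 14 higher and 2 lower of 124. Wave iii, highest at 48 h with at least 0.5 of that level by 24 h, held 23 and 2 of 124, which was the largest share of higher genes (18.5%). Wave iv, highest at 48 h with less than that by 24 h, held 13 and 4 of 117. The higher shares of waves ii and iv, 11.3% and 11.1%, were near the 10.5% of all genes, and that of wave i was 1.52%. The lower shares of waves i to iv were 4.55%, 1.61%, 1.61% and 3.42%, against 2.82% of all genes. In WT Rep. 2, 51 of the 52 higher genes had their highest value at 48 h, against 313 of all genes. The higher genes were picked for a low WT Rep. 2 value at 24 h, so this count is in part built in.

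Set beside the first WT series, neither clone had a larger median change for the higher genes, although single genes did. For the 52 higher genes the first WT series had a median log2 change of 2.08 from 0 to 24 h, dZF1 one of 1.83 and dZF2 one of 2.04, while that of WT Rep. 2 was 0.22. The mean change of the clones was nearer to the first WT series for 48 of them and nearer to WT Rep. 2 for 4. EOMES changed by 4.06 in the first WT series, by 4.04 in dZF1 and 5.29 in dZF2 and by 1.00 in WT Rep. 2, and SP5 by 3.84 in the first WT series, 3.98 and 4.0 in the clones and 1.00 in WT Rep. 2. NODAL changed by 3.77 in the first WT series, 3.92 and 4.96 in the clones and 2.04 in WT Rep. 2. For T, MIXL1 and GSC the mean change of the clones was below that of the first WT series, by a log2 difference of -0.73, -0.15 and -0.07. This mean hides a split, since in each of these genes dZF1 changed less than the first WT series and dZF2 more. The higher genes were picked for a low WT Rep. 2 value at 24 h, so their low change in that series is in part built in. As said above, the genes of the table were chosen for their response to Wnt3a. A larger change in the series used to choose them is therefore built in as well. Over all genes the clones were nearer to the first WT series for 256 and to WT Rep. 2 for 239.

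**Figure D5:**
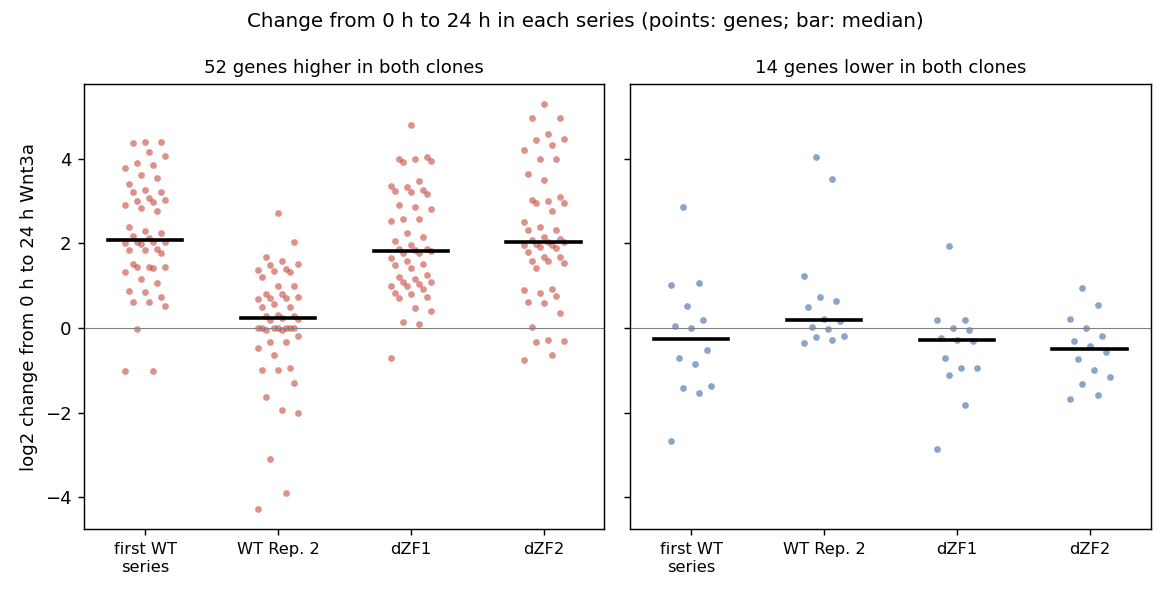
Points give the log2 change from 0 h to 24 h of each gene called higher (left) or lower (right) in the first WT series, WT Rep. 2, dZF1 and dZF2, and bars the median. On the left the medians are 2.08, 0.22, 1.83 and 2.04, and WT Rep. 2 is the low one.

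Against the first WT series, both clones changed at least 2-fold more for 17 genes (3.42%) and 2-fold less for 22 (4.43%). Of the 52 higher genes 2 were among the 17, STXBP6 and LOC440925, and of the 14 lower genes 2 were among the 22, LOC100506686 and NTS. Others went against their call. Of the 52 higher genes 3 were among the 22, GPR75-ASB3, DKK4 and DUSP26. Of the 14 lower genes 1 was among the 17, PPAP2B. The first WT series itself changed at least 2-fold more than WT Rep. 2 for 139 genes (28.0%) and 2-fold less for 54 (10.9%). These counts need 1 series to pass where those of the clones need both, so they cannot be compared in size, and with 2 clones against 2 WT series a permutation test cannot pass. Whether culture, Wnt3a batch or library preparation differed between the WT series was not tested.

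SP5 peaks were set beside the calls last. Both deposited lists name in their headers the same ChIP library of Wnt3a-treated cells, of 18641194 tags, and differ in the control. The headers give the cells as H9, another hESC line, while the labels give H1 and class the lists as 0 h and 24 h of Wnt3a. Which is right could not be settled here, so the peaks may come from another line than the RNA, and neither list is read as untreated cells. Of 481 genes matched to the annotation, 34 were the nearest to a summit within 50000 bases in the list with the Wnt3a-treated control, and 3 of these were called higher (8.82%) and 1 lower, against 10.3% higher of the other 447. The 3 were MIXL1, SP5 and HES1, and the lower gene was LHFP. The median ratio was 0.15 near a peak and 0.25 elsewhere. In the list with the buffer-treated control 7 of 30 genes were higher (23.3%), MIXL1, SP5, HES1, GSC, NODAL, WLS and FAM167A, against 9.31% of the other 451. With the Wnt3a-treated control, the share near a peak was 16.7% of 18 genes against 9.94% within 2000 bases, 10.5% of 38 against 10.2% within 100000 bases, and 13.6% of 22 against 10% for peaks with a score above the median. These shares rest on 3 or 4 higher genes, and the order near and away from peaks turned with the distance, the score and the control.

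The peaks differed in strength. MIXL1 and SP5 had 95 and 93 tags and a false discovery rate of 0% in both lists. The windows of GSC and NODAL shown above had 30 and 43 tags and false discovery rates of 65.4% and 46.0% in the list with the buffer-treated control, and neither gene was nearest to a summit within that distance in the other. HES1, a Notch and WNT responsive repressor, had 42 tags and a rate of 27.8% with the Wnt3a-treated control but 70.8% with the buffer-treated one. WLS and FAM167A had rates of 70.5% and 60.4% with the buffer-treated control. Of the higher genes near a peak in that list, only MIXL1 and SP5 thus had a peak with a low rate. The MIXL1 window holds 2 GGGCGG boxes and 1 GGGAGG box on either strand, and the SP5 window 1 GGGAGG box. BDKRB2 and EOMES, with mean ratios above that of MIXL1, were not the nearest gene to a summit within 50000 bases in either list.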

How the data were processed

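RNA was depleted of ribosomal RNA before sequencing. The authors aligned reads to hg19 with TopHat and computed RPKM with Cuffdiff; Bowtie 0.12.7, SAMtools 0.1.12a and MACS 1.4.2 are also named in the submitters' processing notes, and the gene annotation is not given in the sources used here. The RPKM table that the authors deposited for the first WT series has 1 decimal and lists 10975 genes, each reaching an RPKM of 4 or more. In the mutant table the authors divided each RPKM by the largest one of that gene among the wild-type libraries run beside the clones, so the deposited value is a fraction for those libraries and a ratio for the clones. It has 2 decimals, which makes low values coarse. The deposited SP5 peak lists give the tag count of each peak, its score, which derives from a p-value, its fold enrichment and its percent false discovery rate. The first WT series was divided here by its own highest RPKM. The series are scaled separately, so only changes within a series were set side by side.

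Log2 ratios were taken after adding 0.05, which understates changes of low genes, and a gene was called where both clones were at least 2-fold from WT Rep. 2 the same way. limma 3.58.1 in R 4.3.3 was fitted to the 12 libraries as genotype by time, with Benjamini-Hochberg adjustment over all genes of the table. Named genes were the 10 largest and 10 smallest mean ratios among called genes with values above 0, genes the study follows, up to 5 members of each gene list, genes also called at 0 h, genes opposite in the clones and the 3 on either side of the threshold. Others were named after their values were seen. The members and lists were chosen with earlier results of these data known. Samples were grouped by the authors' labels, with 0 columns left unused. Gene positions came from GENCODE release 44 mapped to GRCh37. Python 3.11.15, numpy 2.4.6, pandas 2.3.3, pysam 0.24.0 and matplotlib 3.10.9 were used, and the steps were tested on simulated data. Alternatives were other pseudocounts, folds, filters, centring, each clone left out, other distances and the other peak list. The differentiation experiments and other ChIP-Seq of the study were not analysed here.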

Additional observations from a re-analysis of the deposited data

Results flagged for a closer look

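SLC22A3 and MYCBP stood out because the distance of the clones from WT Rep. 2 differed between 0 and 24 h in the limma test of that difference, by 5.70 ± 0.41 (SE, adjusted p = 0.00175) and 3.61 ± 0.43 (SE, adjusted p = 0.0224) on the log2 scale. Both clones were above WT Rep. 2 at 24 h for both genes. Both are listed at 0 in WT Rep. 2 at 24 h alone, so these fitted differences rest on that library and on the pseudocount and are not folds.

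ANKHD1-EIF4EBP3 was picked out because the clones lay on opposite sides of WT Rep. 2 at 24 h, with a log2 ratio of -1.66 in dZF1 and 4.28 in dZF2. With 1 library per clone this difference was not tested.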

How the results depend on the processing

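The counts of higher and lower genes (52 and 14) kept within 1.5 times under pseudocounts of 0.01, 0.02 and 0.1. They were 34 and 7 with a pseudocount of 0.2, 115 and 42 at 1.5-fold, and 27 and 2 at 3-fold. Lower genes were 9 of 405 with a highest RPKM of at least 10 in the first WT series, 31 with centring, and 9 with each line divided by its own 0 h library. Leaving out dZF1 gave 111 and 45 and leaving out dZF2 gave 60 and 23. Against the change of the first WT series the counts were 17 and 22, and 16 of 33 named genes changed sign there. Those called at 24 h went to -0.29 for APLNR, -0.92 for C1orf97, -1.27 for CER1, 0.19 for CLVS2, -0.03 for FOXA2, -0.31 for GATA6, -0.07 for GSC, 1.09 for LHFP, -0.15 for MIXL1, 0.56 for NPTX1, 0.16 for PCDH18, 1.12 for PPAP2B and -0.45 for YAF2, and those not called to -0.73 for T (2.13 against WT Rep. 2), -0.16 for AMOTL2 and -0.86 for LHX1. These values are means of both clones, which for T, MIXL1 and GSC lay on opposite sides of the first WT series. With each line divided by its own 0 h library PRODH became 0.64 and CXCR4 -0.41. The genes that differed the same way at 0 h numbered 7, and 11 at 1.5-fold.

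For limma at 24 h (58 higher, 16 lower), the 24 h libraries alone gave 0 and 0, with 58 and 12 at an unadjusted p under 0.05. Centring gave 37 higher genes, and a trend in the variance gave 6 lower genes. For the difference from 0 h (2 higher), the contrasted times alone gave 0, with 50 higher and 8 lower at an unadjusted p under 0.05, a pseudocount of 0.02 gave 5, a pseudocount of 0.1 gave 1 and the line as a random block gave 5. The filter at 0.1 in any of the 12 libraries removed no gene. The neural list had a median ratio of 0.13, which became -0.11 with centring and -0.14 from the 24 h minus 0 h ratio. Near an SP5 peak the median ratio of 0.15 became 0.38 in the list with the buffer-treated control, and leaving out a clone gave 0.08 to 0.13. The cause of these shifts was not tested. No paired analysis was possible because the groups compared share fewer than 2 replicate numbers, and the pairing used was that within a line, by its own 0 h library and by the line as a random block, as given above.

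The depth of the libraries is unknown, values have 2 decimals, and 1 WT library at 24 h carries every ratio.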

Other observations

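STXBP6, which encodes a syntaxin-binding protein, was the 1 called higher gene that WT Rep. 2 did not have highest at 48 h. It fell by 1.01 on the log2 scale from 0 to 24 h in the first WT series and by 1.63 in WT Rep. 2, and its change was 0.13 in dZF1 and 0.02 in dZF2. MOBP was listed at 0 in both clones at 24 h and at 0.52 in WT Rep. 2, and at 48 h it was at 1.00 in WT Rep. 2 against 3.32 in dZF1 and 3.28 in dZF2. C12orf34 was at 1.32 in both clones and 0.39 in WT Rep. 2 at 24 h, but at 0 h it was at 0 in dZF1 and 1.02 in dZF2, and its limma adjusted p was 0.613. DUSP26 was called at 24 h with 0.59, 1.49 and 1.54, and differed between the clones at 0 h, at 1.07 in dZF1 and 0.31 in dZF2. These 4 genes were chosen after their values were seen.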
